A study of Arabidopsis thaliana with 10 samples.

Results

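The 40 genes described here encode histones of Arabidopsis thaliana. They are not all of its histone genes, and 8 others were kept as a separate list. The 40 were taken from a list of gene identifiers and matched by identifier to the deposited counts, where all were found among 33602 listed genes. By the variant each encodes, 25 belong to the replicative histones (8 genes of H4, 5 of H3.1, 4 of canonical H2A and 8 of H2B) and 7 to the replacement variants (3 of H3.3 and 4 of H2A.Z). The other genes encode the variants H2A.X (2 genes) and H2A.W (3 genes) and linker histone H1 (3 genes). All 40 passed the filter on low counts, as did 20628 of all genes.

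DNA in the nucleus is wrapped around a core of the histones H2A, H2B, H3 and H4, and H1 binds where the DNA enters and leaves that core. Replicative histones are made mainly in S phase and packaged onto newly copied DNA, H3.1 by the chaperone CAF-1. Replacement variants are made throughout the cell cycle and in cells that no longer divide. H3.3 is deposited at active genes, and H2A.Z is exchanged into nucleosomes near gene starts by the SWR1 complex. H2A.W marks heterochromatin and H2A.X is phosphorylated at DNA breaks. Plant histone mRNAs carry poly(A) tails, unlike most replicative histone mRNAs of animals, so they are retained when polyadenylated RNA is selected.

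Messenger RNA was sequenced from whole seedlings 5 days old, each library from a pool of more than 100 plants, in 5 groups of 2 libraries. On 5 µM norflurazon, which blocks carotenoid synthesis and bleaches seedlings grown in light, there were gun1-9, MORF2OX, MORF2OX(w) and wild type (Col6-3), and the last group was untreated wild type. The mutant gun1-9 carries a lesion in GUN1, a plastid protein of plastid-to-nucleus signalling. MORF2OX and MORF2OX(w) overexpress MORF2, a factor of RNA editing in plastids, and were described by the submitters as having phenotypes of unequal strength. All were kept at 22 °C in constant light (24 h a day, 100 µmol m-2 s-1). No untreated libraries of the lines were used here, the promoter of the transgene is not given in the sources used here, and nothing says whether the libraries of a group came from separate sowings. The p-values thus measure the spread between these libraries, which may be technical.

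Total counts were 19018594 to 25220815 per library. Levels below are in CPM, the deposited counts of a gene scaled to the size of its library after TMM normalisation. MORF2 (AT2G33430) was at 7608.4 ± 510 CPM in MORF2OX and 4720.7 ± 412 CPM in MORF2OX(w), against 102 ± 3.60 CPM in wild type on norflurazon (SD, n = 2 each). GUN1 was at 150 ± 5.05 CPM in gun1-9 and 237 ± 65.4 CPM in wild type on norflurazon, and since the lesion is not described in the labels this level is no check of them. As a check of green tissue, 8 of 8 genes of the light-harvesting antenna were lower in wild type on norflurazon than in untreated wild type, and none was at 0 counts in any library. Their summed level was 16507.4 and 17148.8 CPM in gun1-9, 3947.2 and 3602.1 CPM in MORF2OX, 2037.3 and 2085.3 CPM in MORF2OX(w), 1144.3 and 803 CPM in wild type on norflurazon and 85710.8 and 76088.6 CPM in untreated wild type.

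The libraries of wild type on norflurazon stood apart from each other, and every comparison with that group rests on them. When their counts were compared gene by gene, chi-square over its degrees of freedom was 36.05, against 5.216 to 10.08 in the other groups, and their rank correlation across genes was 0.984, against 0.994 to 0.997. The histone genes took part in that difference. In replicate 1, 38 of the 40 were higher than in replicate 2, among them all 25 replicative genes, with a median log2 difference of 0.57 over the 40 and 0.72 over the replicative genes. Over all genes tested 52.8% were higher in replicate 1 and the median was 0.03. The mitosis genes differed the same way (11 of 12 higher, median 0.51), the DNA replication genes did not (12 of 24 higher, median -0.02), and the antenna genes were higher in replicate 1 in 8 of 8 (median 0.62). In MORF2OX too, replicate 1 was higher in 9 of 12 mitosis genes (median 0.65), 22 of 24 DNA replication genes (0.34) and 5 of 5 H3.1 genes (0.45). Over all genes tested 49.7% were higher in that library. What sets the libraries of either pair apart was not tested.

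**Figure D1:**
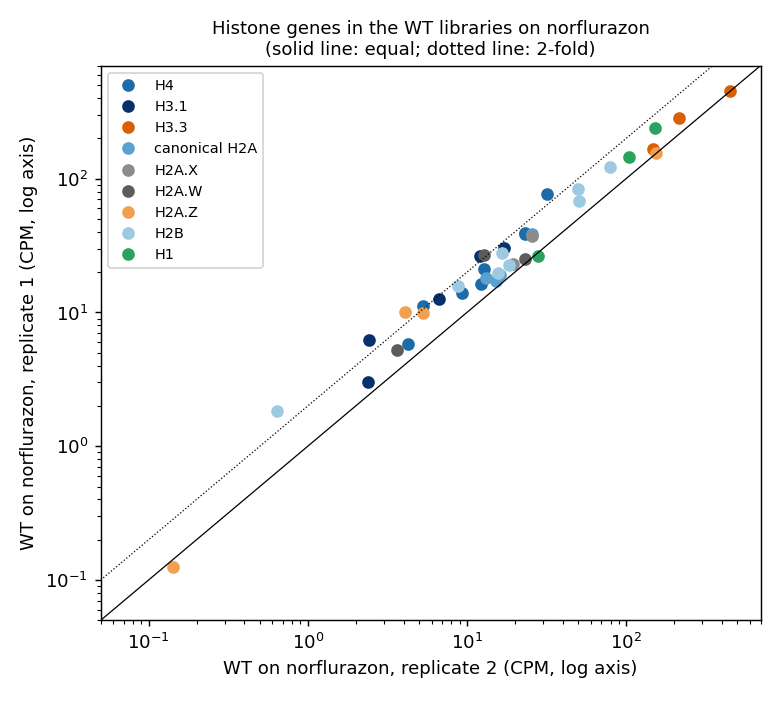
Level of each of the 40 histone genes in the libraries of wild type (WT) on norflurazon, replicate 1 on the vertical and replicate 2 on the horizontal axis, in CPM on log axes, coloured by variant. The solid line marks equal levels and the dotted line a 2-fold difference, and 38 of the 40 points lie above the solid line.

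Several of these genes share sequence, which bears on how the counts of single genes can be read. By the RefSeq annotation of TAIR10.1, the 8 H4 genes encode 1 protein of 103 residues and the 5 H3.1 genes 1 protein of 136 residues. The 3 H3.3 genes all encode another protein of 136 residues, which differs from H3.1 at 4 positions, and AT4G40030 also has an annotated form of 164 residues. All genes of H4, H3.1 and H2B had 1 coding exon, whereas those of H3.3 had 3 to 4 and those of H2A.Z 2 to 3. At the level of 50-base stretches of the transcripts, 28 genes shared none with another gene and 8 shared more than 5% of theirs. The largest shares among H4 genes were 27.9% for AT3G46320, with AT3G45930, and 26.7% for AT1G07660, with AT1G07820. Values of these single genes are uncertain, since the counting could drop or split shared reads. AT3G27360, an H3.1 gene, shared 35.6% of its stretches with 2 other genes, mostly with AT3G27380, which overlaps it on the same strand, and 8 of the 40 overlap a gene on the opposite strand. The strand setting of the counting is not given in the sources used here, so reads of those 8 cannot be told from those of their partners.

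Upstream sequences are shown because replicative histone promoters of plants are known for short words that replacement genes need not carry. The words searched were the octamer CGCGGATC and the hexamer ACGTCA, first described in plant histone promoters, the E2F-type words TTTCCCGC and TTTGGCGC, the site II word TGGGCC and the TATA word TATAAA, on both strands of the 300 bases before each gene start. In the sequences below, from RefSeq's TAIR10.1 genome and written along the strand of the gene, capitals mark an octamer or a hexamer in either orientation. The H3.1 gene AT1G09200 (chr1:2972335-2972634, minus strand) holds 2 octamers, the H4 gene AT5G59690 (chr5:24051174-24051473, plus strand) 1, HTA10, a canonical H2A gene (chr1:18926511-18926810, plus strand), 2, and HTA6, an H2A.W gene (chr5:24116221-24116520, minus strand), 1. HTB2, an H2B gene (chr5:7652715-7653014, minus strand), holds 1 hexamer, and HTA9, an H2A.Z gene (chr1:19644936-19645235, plus strand), holds neither word.
AT1G09200: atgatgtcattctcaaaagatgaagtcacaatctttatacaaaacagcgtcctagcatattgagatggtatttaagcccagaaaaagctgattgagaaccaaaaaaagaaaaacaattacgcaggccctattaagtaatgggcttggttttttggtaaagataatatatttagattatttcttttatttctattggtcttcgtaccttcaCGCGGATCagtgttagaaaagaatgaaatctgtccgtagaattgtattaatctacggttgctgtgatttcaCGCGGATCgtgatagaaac
AT5G59690: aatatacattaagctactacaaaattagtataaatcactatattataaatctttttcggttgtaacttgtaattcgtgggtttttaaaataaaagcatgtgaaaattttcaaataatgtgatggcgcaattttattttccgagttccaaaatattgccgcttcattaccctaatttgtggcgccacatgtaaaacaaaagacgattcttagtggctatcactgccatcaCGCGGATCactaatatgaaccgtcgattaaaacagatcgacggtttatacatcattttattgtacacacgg
HTA10: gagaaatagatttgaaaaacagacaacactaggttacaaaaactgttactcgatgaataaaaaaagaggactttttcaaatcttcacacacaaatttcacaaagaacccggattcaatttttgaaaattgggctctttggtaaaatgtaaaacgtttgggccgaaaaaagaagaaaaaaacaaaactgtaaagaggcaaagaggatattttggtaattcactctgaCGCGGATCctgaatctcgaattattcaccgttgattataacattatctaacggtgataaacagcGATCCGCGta
HTA6: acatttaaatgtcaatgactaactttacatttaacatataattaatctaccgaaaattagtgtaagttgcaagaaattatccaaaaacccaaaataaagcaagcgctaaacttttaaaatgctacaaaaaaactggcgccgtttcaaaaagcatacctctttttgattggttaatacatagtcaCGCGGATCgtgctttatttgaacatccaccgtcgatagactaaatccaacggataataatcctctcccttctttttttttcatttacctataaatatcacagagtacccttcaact
HTB2: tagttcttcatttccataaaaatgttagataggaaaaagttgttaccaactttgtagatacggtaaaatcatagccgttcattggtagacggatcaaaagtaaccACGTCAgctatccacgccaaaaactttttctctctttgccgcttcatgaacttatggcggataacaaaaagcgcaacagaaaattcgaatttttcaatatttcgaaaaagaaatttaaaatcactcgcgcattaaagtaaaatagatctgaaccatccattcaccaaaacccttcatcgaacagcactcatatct
HTA9: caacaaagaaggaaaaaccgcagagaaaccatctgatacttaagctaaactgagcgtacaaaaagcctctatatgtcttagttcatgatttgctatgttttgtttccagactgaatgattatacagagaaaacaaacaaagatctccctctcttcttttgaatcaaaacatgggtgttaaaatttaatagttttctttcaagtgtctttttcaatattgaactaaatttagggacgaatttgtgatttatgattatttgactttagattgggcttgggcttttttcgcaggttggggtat

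The octamer was found before 10 of the 40 histone genes (25%) and before 0.149% of 27438 protein-coding genes. It occurred in 3 of 5 H3.1, 2 of 8 H4, 2 of 4 canonical H2A, 1 of 3 H2A.W and 1 of 3 H1 genes, in AT4G40040 among the 3 H3.3 genes, and in no H2A.Z or H2B gene. The hexamer stood before 11 histone genes (27.5%, against 8.73% of all), 7 of them among the 8 H2B genes. TTTGGCGC was present in 3 (7.5%, against 0.419%), namely the H4 genes AT3G45930 and AT3G46320 and the H3.1 gene AT5G10390, and TTTCCCGC in 0 (against 0.689%). The windows of AT3G45930 and AT3G46320 are nearly the same sequence, with TTTGGCGC 237 bases before the gene start in each, so they are not separate cases. TGGGCC was found in 14 (35.0%, against 14.6%) and TATAAA in 19 (47.5%, against 52.9%), with TATAAA in all 5 H3.1 genes and in no H3.3 gene. Of the window before AT4G40030, an H3.3 gene, only the 42 bases nearest the gene start lie outside the annotated gene AT4G40040. Words absent there thus say little of a promoter. These matches describe letters in a window and are not evidence of binding.

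Transcripts of replicative histones were lower in wild type on norflurazon than in untreated wild type, while those of the replacement variants moved in both directions or did not pass the test. By edgeR's quasi-likelihood F test at an adjusted p of 0.05, 30 of the 40 genes were lower in wild type on norflurazon than in untreated wild type and 2 were higher. Among all genes tested 65.0% were called, 34.5% lower and 30.5% higher. Of the replicative genes 23 of 25 were lower and 0 higher, with a median log2 fold change of -1.61, whereas the median of all genes was -0.03. Of the replacement genes 3 of 7 were lower and 1 higher, with a median of -0.35. Of the 32 calls, 29 held when each of the 10 libraries was left out in turn. Scaled by library totals alone, the median of all genes moved to 0.70, and 21 histone genes were then lower and 9 higher, with 16 of the 25 replicative genes lower and 1 higher (16.6% of all genes lower and 60.5% higher). In bulk seedlings, fewer cells of a kind and less RNA per cell cannot be told apart.

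**Figure D2:**
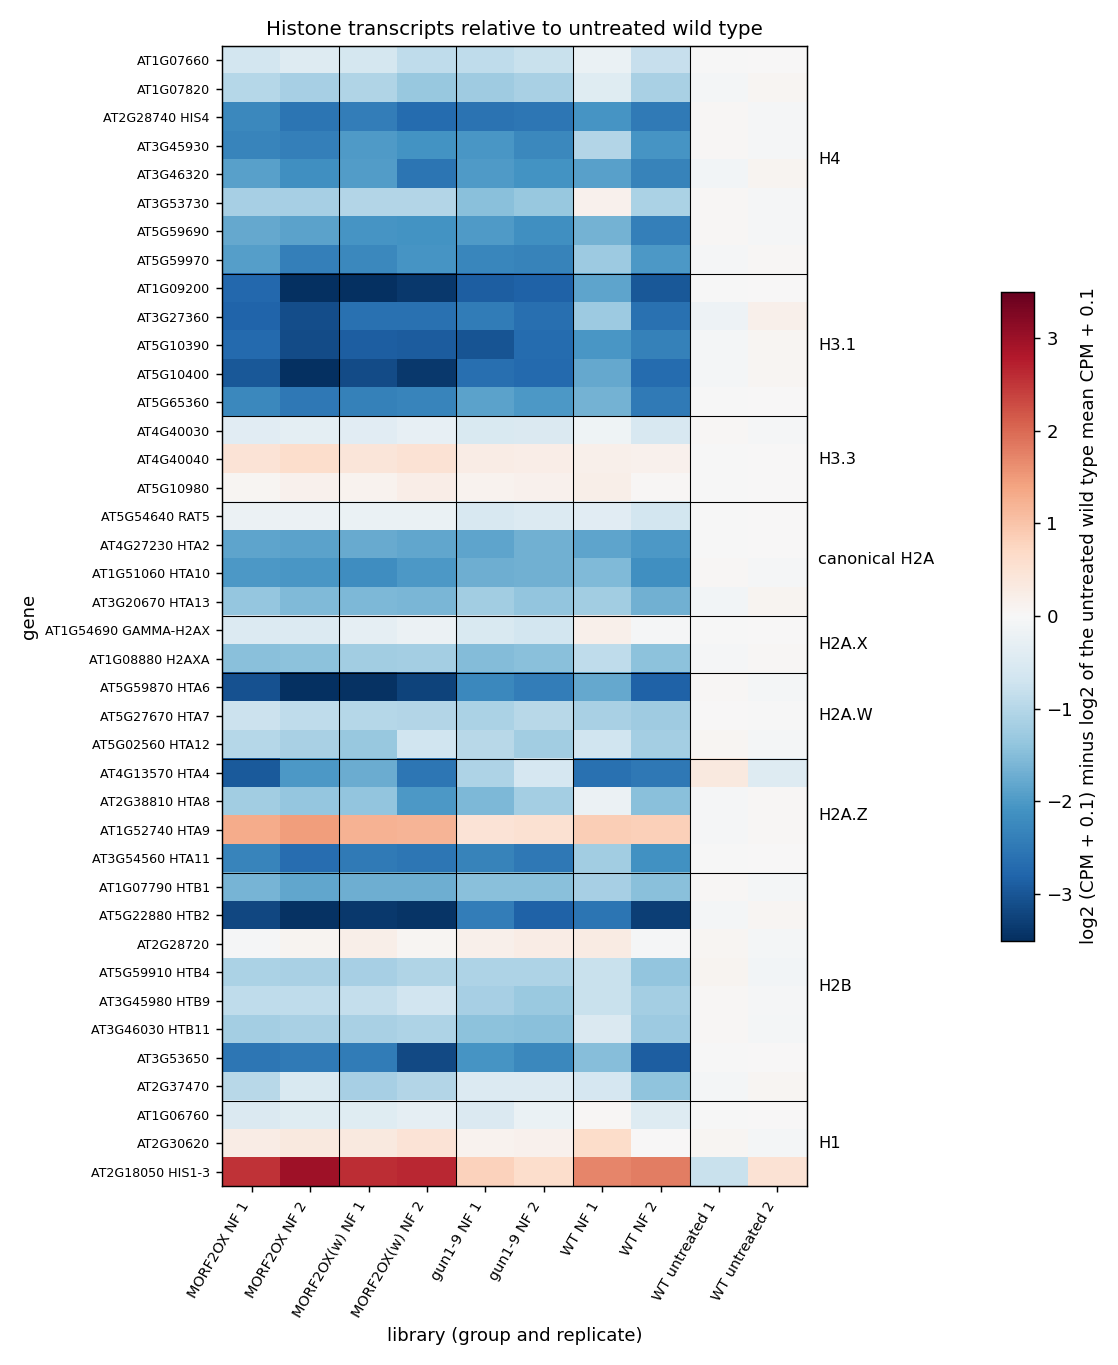
Level of each histone gene (rows, grouped by variant) in each of the 10 libraries (columns), as log2 of CPM + 0.1 minus log2 of the mean of untreated wild type + 0.1, with blue below and red above that mean and colours saturated at 3.5 in each direction. Rows of H3.1, HTA6 and HTB2 are blue in all 8 libraries on norflurazon, and HTA9 and HIS1-3 are red in all 8.

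H3.1, the replicative form of H3, fell in all 5 of its genes in wild type on norflurazon, with a median log2 fold change of -2.18. AT1G09200 was at 26.6 and 12.1 CPM in wild type on norflurazon and at 94.7 and 96.8 CPM in untreated wild type, a log2 fold change of -2.31 ± 0.29 (SE, edgeR adjusted p = 2.3e-05). AT5G65360 was at 30.1 and 17.1 CPM on norflurazon, against 95.2 and 95.9 CPM untreated (-2.02 ± 0.20, edgeR adjusted p = 3.08e-06). In both genes each library on norflurazon lay below each untreated one. The neighbours AT5G10390 and AT5G10400, which lie 577 bases apart on chromosome 5, fell by 2.25 and 2.18 on the log2 scale although their untreated levels per kb of transcript differed, at 18.1 and 55.4 CPM per kb. AT3G27360 changed by -1.84, and AT3G27380, the gene that overlaps it, by 0.57.

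H4, which has no replacement form, was lower in 7 of 8 genes, with a median of -1.54. HIS4 (AT2G28740) was at 16.2 and 12.3 CPM in wild type on norflurazon and at 70.8 and 66.2 CPM in untreated wild type, the largest fall among H4 genes (-2.27 ± 0.16, edgeR adjusted p = 1.25e-07). AT5G59690, the most abundant H4 gene per kb in untreated wild type (166 CPM per kb), was at 39.2 and 23.3 CPM on norflurazon, against 126 and 121 CPM untreated (-1.99 ± 0.19). The genes did not fall alike. AT1G07660 was at 14.1 and 9.34 CPM on norflurazon and at 16.4 and 16.6 CPM untreated (-0.50 ± 0.18, edgeR adjusted p = 0.0292), and this call was lost without replicate 2 of wild type on norflurazon (-0.23, edgeR adjusted p = 0.174). AT3G53730 was at 76.8 and 32.0 CPM on norflurazon, overlapping the 71.0 and 67.8 CPM untreated, and did not pass (-0.36 ± 0.27, edgeR adjusted p = 0.272). Without replicate 1 of wild type on norflurazon it was called lower (-1.11, edgeR adjusted p = 2.69e-07), and without replicate 2 it was at 0.15 and not called. Its share of all H4 counts was 31.4% in wild type on norflurazon and 16.3% in untreated wild type, while that of AT5G59690 was 18.1% and 29.0%.

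Canonical H2A, the replicative form of H2A, was lower in 4 of 4 genes, with a median of -1.63. HTA2 was at 17.2 and 15.3 CPM in wild type on norflurazon, against 61.9 and 62.1 CPM in untreated wild type (-1.93 ± 0.11, edgeR adjusted p = 3.74e-08). HTA10 was at 38.8 and 25.7 CPM on norflurazon, against 117 and 111 CPM untreated (-1.82 ± 0.16). RAT5, the H2A gene known from its requirement for transformation of roots by Agrobacterium, fell least, at 19.1 and 16.1 CPM on norflurazon and 24.8 and 25.3 CPM untreated (-0.51 ± 0.12, edgeR adjusted p = 0.00219). Scaled by library totals alone RAT5 turned to 0.22 and AT1G07660 to 0.24, both below the median of all genes under that scaling.

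H2B, the partner of H2A in the core, was lower in 7 of 8 genes, with a median of -1.01 and a wide range. HTB2 was at 28.0 and 16.6 CPM in wild type on norflurazon, against 158 and 172 CPM in untreated wild type. Its log2 fold change of -2.90 ± 0.21 (edgeR adjusted p = 2.31e-07) was the largest fall among the 25 replicative genes. HTB4, at 122 and 79.6 CPM on norflurazon and 221 and 195 CPM untreated, fell less (-1.05 ± 0.17), as did HTB9 (-0.97 ± 0.14) and HTB11 (-0.83 ± 0.19). The opposite-strand partner of HTB9, AT3G45970, was at 132 ± 2.62 CPM on norflurazon and 5.44 ± 0.152 CPM untreated (SD, n = 2 each), and the reads of the pair cannot be told apart. AT2G28720 was the H2B gene that did not pass, at 19.8 and 15.6 CPM on norflurazon and 16.9 and 15.3 CPM untreated (0.13 ± 0.14, edgeR adjusted p = 0.424). It holds the hexamer, as 6 of the other H2B genes do, and lies 1536 bases from HIS4, the H4 gene that fell most.

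The variants H2A.W and H2A.X are counted apart from both classes. All 3 H2A.W genes were lower, with a median of -1.20. HTA6 was at 27.0 and 12.9 CPM in wild type on norflurazon, against 96.3 and 89.3 CPM in untreated wild type (-2.22 ± 0.27, edgeR adjusted p = 1.39e-05). HTA7 fell by 1.20 and HTA12 by 0.94 on the log2 scale. Of the H2A.X genes, H2AXA was at 37.6 and 25.7 CPM on norflurazon and 68.0 and 71.4 CPM untreated (-1.14 ± 0.15, edgeR adjusted p = 3.08e-05), while GAMMA-H2AX was at 23.0 and 19.5 CPM and at 20.0 and 20.4 CPM (0.07 ± 0.12, edgeR adjusted p = 0.606). An opposite-strand partner of GAMMA-H2AX, AT1G54680, was at 6.86 ± 1.08 CPM on norflurazon and 3.3 ± 0.00998 CPM untreated (SD, n = 2 each), and their reads cannot be told apart.

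H3.3 was above H3.1 in every library, also per base of transcript. Its summed CPM in the groups on norflurazon was 99.5% to 114% of that in untreated wild type. Its 3 genes together were at 907 and 817 CPM in wild type on norflurazon and at 871 and 862 CPM in untreated wild type. This likeness rests on TMM scaling, since their raw counts were 21666 and 22933 on norflurazon and 13218 and 15369 untreated. Total counts of these libraries were 19018594 and 22082438 on norflurazon and 21024333 and 22407221 untreated. AT4G40040 was at 455 and 452 CPM on norflurazon, against 399 and 408 CPM untreated (0.17 ± 0.11, edgeR adjusted p = 0.194). AT5G10980 was at 166 and 148 CPM, against 142 and 144 CPM (0.13 ± 0.11, edgeR adjusted p = 0.302). AT4G40030, which lies 42 bases from AT4G40040 on the same strand, was at 286 and 216 CPM on norflurazon and 330.0 and 309 CPM untreated and passed the test (-0.35 ± 0.14, edgeR adjusted p = 0.0398). That call held in 1 of the 10 fits with a library left out, and its sign turned to 0.39 when libraries were scaled by their totals alone.

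H2A.Z held genes that moved in opposite directions. HTA9 rose, at 155 and 154 CPM in wild type on norflurazon and 83.5 and 88.5 CPM in untreated wild type (0.85 ± 0.11, edgeR adjusted p = 2.57e-05), and it was called in each of the 10 fits with a library left out. The gene on its opposite strand, AT1G52750, was at 6.42 ± 0.267 CPM on norflurazon and 13.8 ± 1.40 CPM untreated (SD, n = 2 each). HTA11 fell, at 9.92 and 5.31 CPM on norflurazon, against 23.0 and 23.4 CPM untreated (-1.62 ± 0.23, edgeR adjusted p = 6.28e-05). HTA8 was at 10 and 4.06 CPM, against 11.1 and 11.8 CPM, and did not pass (-0.72 ± 0.33, edgeR adjusted p = 0.0718). Here too 1 library decided the call, since HTA8 was called lower without replicate 1 of wild type on norflurazon (-1.49, edgeR adjusted p = 7.08e-05) and was at -0.19 without replicate 2. HTA4 was near the limit of counting, with 3 and 4 reads on norflurazon and 25 and 16 reads untreated (-3.17 ± 0.58, edgeR adjusted p = 0.000453). HTA9 made up 91.3% of the summed H2A.Z CPM in wild type on norflurazon and 70.5% in untreated wild type, so the summed level of the variant followed it, at 175 and 164 CPM on norflurazon and 119 and 125 CPM untreated.

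Among the linker histones, HIS1-3, known in Arabidopsis as the stress-inducible H1, rose. It was at 26.4 and 27.9 CPM in wild type on norflurazon, against 4.61 and 11.3 CPM in untreated wild type, and every library on norflurazon lay above both untreated ones (1.75 ± 0.28, edgeR adjusted p = 0.000151). With each library left out in turn the log2 fold change ran from 1.36 to 2.65, and all 10 fits called it. The main H1 genes AT1G06760 and AT2G30620 did not pass (-0.17 ± 0.15 and 0.36 ± 0.17, edgeR adjusted p = 0.33 and 0.0812). AT1G06760 was called lower without replicate 1 of wild type on norflurazon (-0.43, edgeR adjusted p = 0.00509), and AT2G30620 higher without replicate 2 (0.65, edgeR adjusted p = 8.07e-05).

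**Figure D3:**
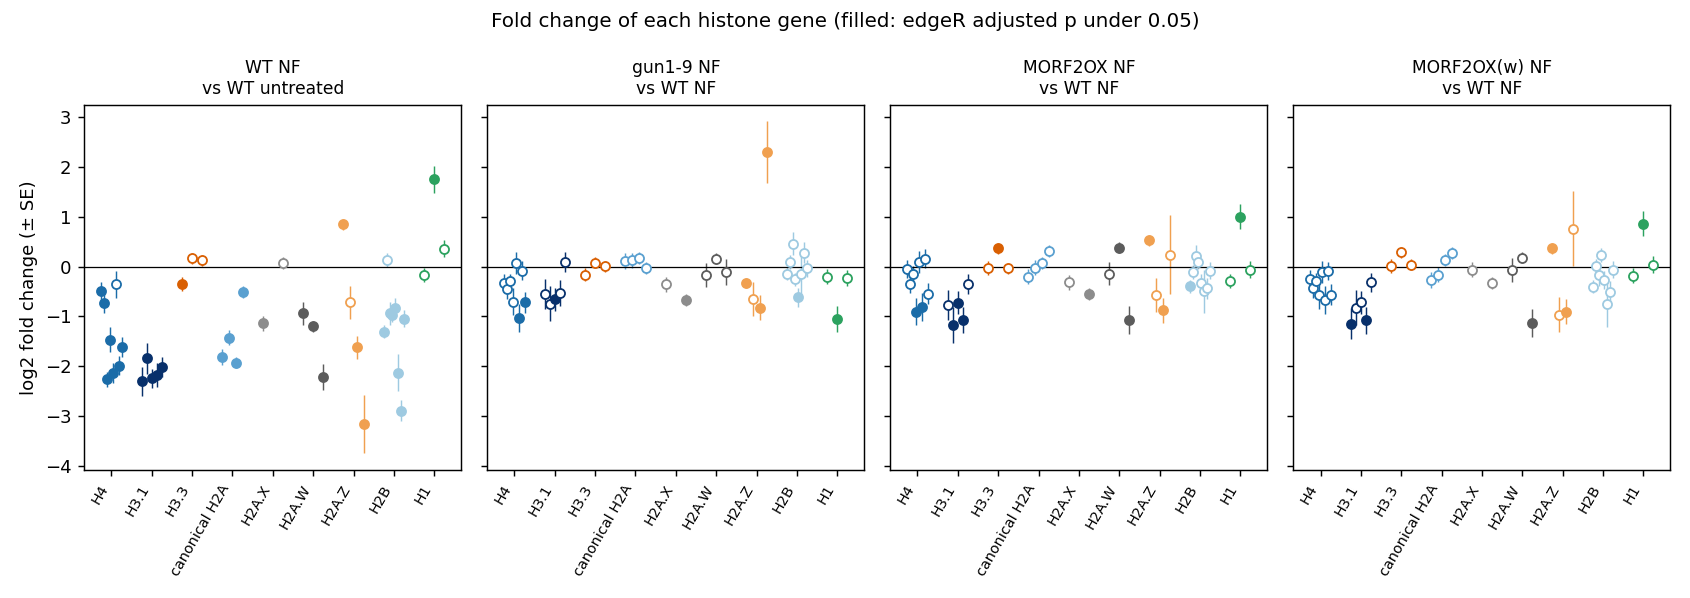
Log2 fold change of each histone gene with its SE, by variant, in wild type on norflurazon against untreated wild type (first panel) and in gun1-9, MORF2OX and MORF2OX(w) against wild type on norflurazon (other panels). Filled points passed an edgeR adjusted p of 0.05, namely 32, 9, 13 and 6 genes in the panels from left to right.

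The balance of replicative to replacement transcripts was compared within each library, so that scaling between libraries does not enter. The ratio of summed H3.1 to summed H3.3 counts was 0.046 and 0.0309 in MORF2OX, 0.0382 and 0.0362 in MORF2OX(w), 0.058 and 0.0556 in gun1-9, 0.0866 and 0.0498 in wild type on norflurazon, and 0.295 and 0.312 in untreated wild type. All 8 libraries on norflurazon lay below both untreated ones. The log2 ratio differed by -2.21 between wild type on norflurazon and untreated wild type. Per base of transcript, the same ratio was 0.125 and 0.0732 in wild type on norflurazon and 0.427 and 0.45 in untreated wild type. The ratio of canonical H2A to H2A.Z was 0.38 and 0.331 in MORF2OX, 0.374 and 0.395 in MORF2OX(w), 0.672 and 0.656 in gun1-9, 0.532 and 0.429 in wild type on norflurazon, and 2.04 and 1.95 in untreated wild type. Its log2 difference was -2.06 between wild type on norflurazon and untreated wild type, and -0.39 when each gene had the same weight, as HTA4, HTA8 and HTA11 then count as much as HTA9. With 2 against 2 libraries an exact permutation test, two-sided, cannot give a p below 0.333, so these ratios are given with no test.

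**Figure D4:**
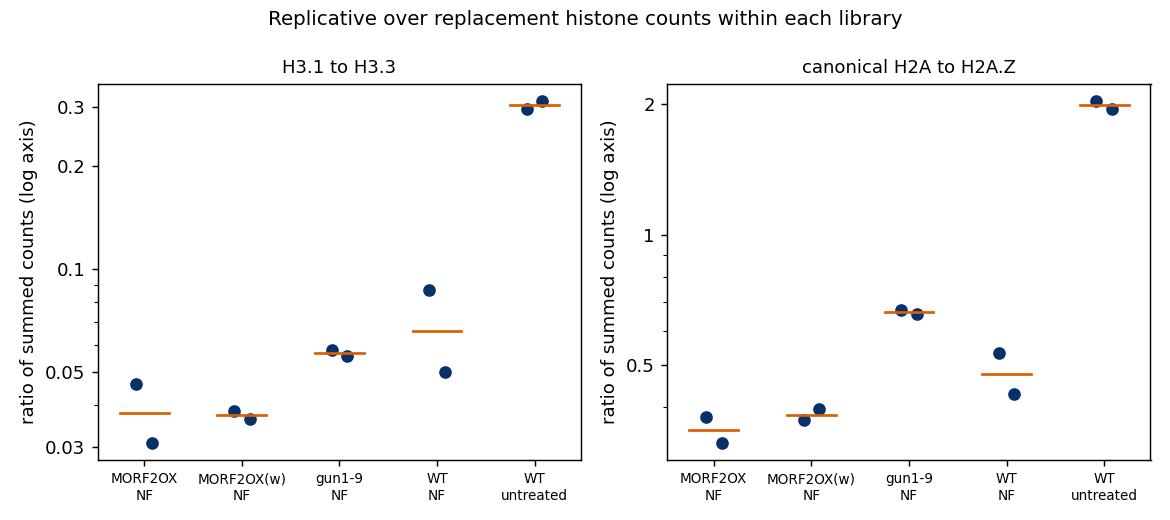
Ratio of summed counts of H3.1 to H3.3 (left) and of canonical H2A to H2A.Z (right) in each library on log axes, with a line at the geometric mean of each group (n = 2). The untreated wild type libraries are the highest in both panels, and among the groups on norflurazon gun1-9 is the highest for H2A and H2A.Z.

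The 3 lines on norflurazon were also set against untreated wild type, with the same untreated libraries in each comparison. In gun1-9, 31 of the 40 genes were lower and 1 higher (60.1% of all genes called, 30.8% lower and 29.3% higher). In MORF2OX, 33 were lower and 3 higher (66.2% called, 35.0% lower and 31.2% higher), and in MORF2OX(w) 31 were lower and 3 higher (65.6% called, 34.8% lower and 30.8% higher). In each of the lines 23 of 25 replicative genes were lower and 0 higher, with medians of -1.76 in gun1-9, -1.86 in MORF2OX and -2.05 in MORF2OX(w). Of the 40 genes, 27 were lower in all 4 groups on norflurazon, 21 of them replicative, and HTA9 was the gene higher in all 4. The summed replicative level was 542 and 518 CPM in MORF2OX, 522 and 531 CPM in MORF2OX(w), 537 and 525 CPM in gun1-9, 758 and 474 CPM in wild type on norflurazon, and 1647.2 and 1626.6 CPM in untreated wild type. The 6 libraries of the lines lay between the pair from wild type on norflurazon. The summed replacement level ran from 981 to 1274.2 CPM over the libraries on norflurazon, against 990.0 and 986 CPM in untreated wild type.

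**Figure D5:**
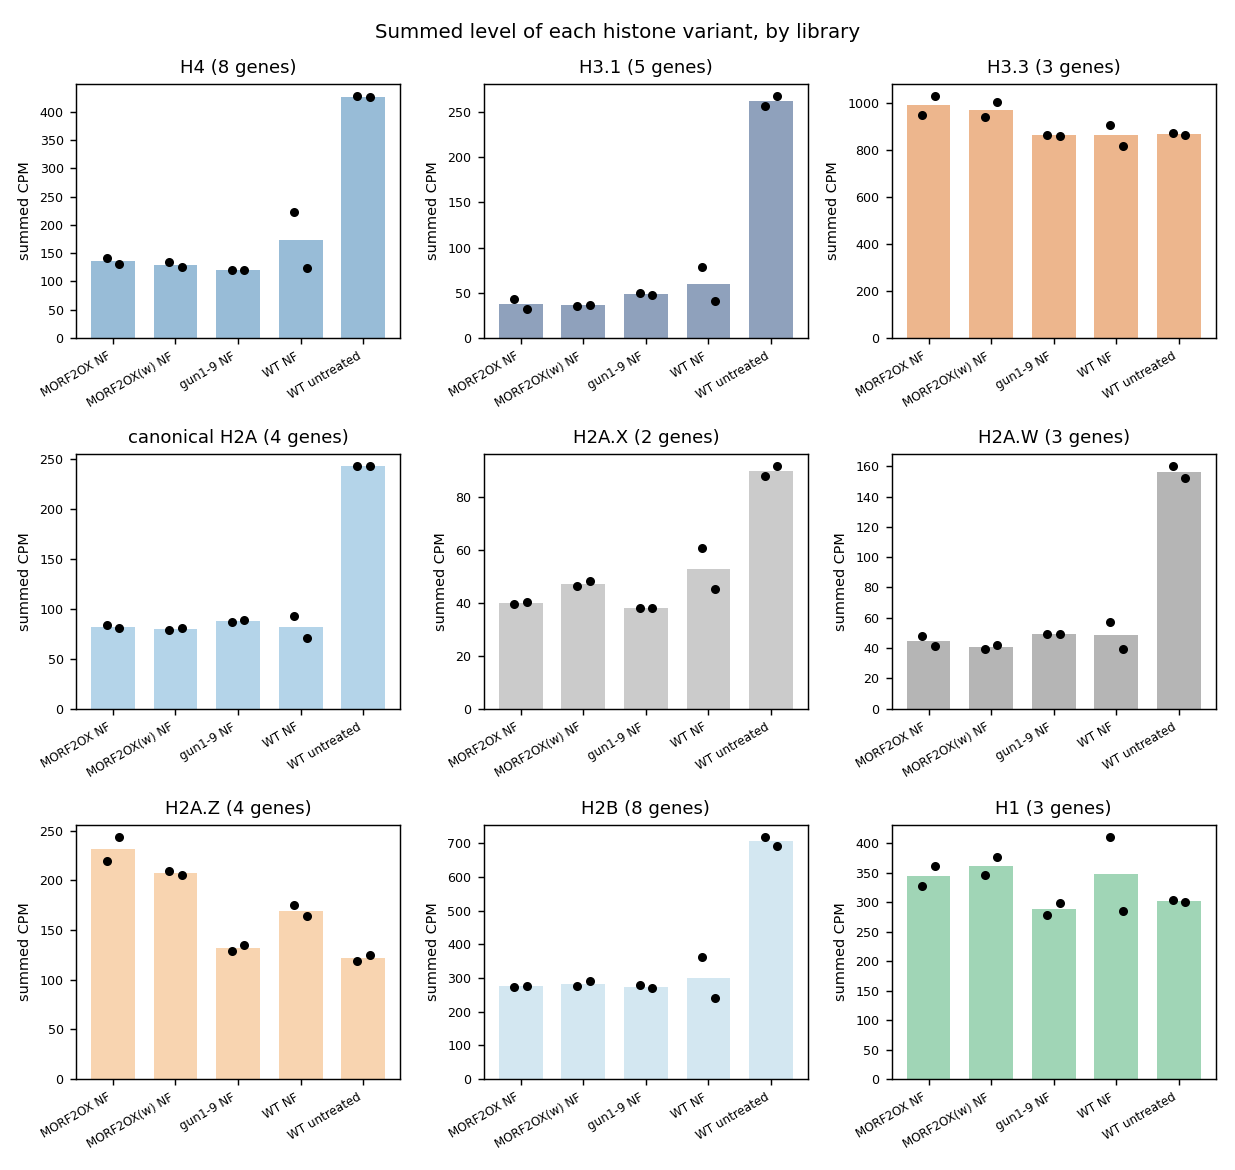
Summed CPM of the genes of each variant in each library (points) with the group mean (bars, n = 2), 1 panel per variant. Untreated wild type stands above all other groups for H4, H3.1, canonical H2A, H2A.X, H2A.W and H2B, and below them for H2A.Z.

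Against wild type on norflurazon, the lines showed few changes in histone genes that did not hang on 1 library. These 3 comparisons share their wild type libraries. The fit used 1 estimate of spread for all groups, so the wider spread of those libraries can make the p-values here too small. In gun1-9, 8 of 40 genes were lower and 1 higher (20.0% and 2.5%), where 43.8% of all genes were called, 20.9% lower and 22.9% higher. The share of lower histone genes was thus near that of all genes. Without replicate 1 of wild type on norflurazon 4 were lower and 9 higher (20.1% and 23.7% of all genes), and without replicate 2, 24 were lower and 1 higher (25.3% and 27.8% of all genes). In MORF2OX, 9 were lower and 4 higher (22.5% and 10%), where 33.4% of all genes were called, 14.1% lower and 19.3% higher. Without replicate 1 these counts were 2 and 8 (11.4% and 18.9% of all genes), and without replicate 2 they were 22 and 4 (20.9% and 26.9% of all genes). In MORF2OX(w), 4 were lower and 2 higher, where 12.9% of all genes were called, 4.53% lower and 8.36% higher. Without replicate 1 these counts were 0 and 5 (3.92% and 9.69% of all genes), and without replicate 2 they were 26 and 2 (15.9% and 21.1% of all genes). Under scaling by library totals alone the counts were 27 lower and 1 higher in gun1-9, 24 lower and 0 higher in MORF2OX and 12 lower and 0 higher in MORF2OX(w), with all-gene medians of -0.45, -0.32 and -0.19. Of all genes, 47.5% were then lower and 12.0% higher in gun1-9, 36.7% lower and 8.06% higher in MORF2OX, and 13.7% lower and 4.07% higher in MORF2OX(w).

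The genes whose calls held with either of those libraries left out were 5 in gun1-9, 6 in MORF2OX and 2 in MORF2OX(w), and HTA9 and HIS1-3 were common to the lines. Fewer calls held when each of the 10 libraries was left out in turn, namely 1 of 9 in gun1-9 (GAMMA-H2AX), 2 of 13 in MORF2OX (HTA9 and GAMMA-H2AX) and 0 of 6 in MORF2OX(w). HTA9 was at 211 and 236 CPM in MORF2OX (0.53 ± 0.11, edgeR adjusted p = 0.00311), 201 and 198 CPM in MORF2OX(w) (0.37 ± 0.11, edgeR adjusted p = 0.0444) and 121 and 125 CPM in gun1-9 (-0.33 ± 0.11, edgeR adjusted p = 0.0258), against 155 and 154 CPM in wild type on norflurazon. It was thus higher in both overexpression lines and lower in gun1-9, with no overlap of libraries. Scaled by library totals alone it was not called in MORF2OX (0.19) or in MORF2OX(w) (0.17) and stayed lower in gun1-9 (-0.75).

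HIS1-3 followed the same order. It was at 46.3 and 62.3 CPM in MORF2OX (1.00 ± 0.25, edgeR adjusted p = 0.00921), 48.6 and 49.9 CPM in MORF2OX(w) (0.86 ± 0.25, edgeR adjusted p = 0.0411) and 14.0 and 12.3 CPM in gun1-9 (-1.05 ± 0.26, edgeR adjusted p = 0.00648), against 26.4 and 27.9 CPM in wild type on norflurazon. The libraries of each line lay wholly to 1 side of those of wild type. With each library left out in turn, the call of HIS1-3 held in 9 of 10 fits in MORF2OX, 4 in MORF2OX(w) and 9 in gun1-9, and that of HTA9 in 10, 2 and 6.

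The other genes called in gun1-9 with either library of wild type on norflurazon left out were AT3G53730 (H4, -1.04 ± 0.28), GAMMA-H2AX (-0.67 ± 0.12) and HTA4 (2.3 ± 0.62). The size of the first rested on those libraries, at -0.28 without replicate 1 and -1.53 without replicate 2, and its call was lost without replicate 1 of gun1-9 (edgeR adjusted p = 0.0686). GAMMA-H2AX was at 13.9 and 12.9 CPM in gun1-9, against 23.0 and 19.5 CPM in wild type on norflurazon (edgeR adjusted p = 0.000904). HTA4 had 11 and 19 reads in gun1-9, against 3 and 4 reads in wild type on norflurazon (edgeR adjusted p = 0.00995). In MORF2OX, AT5G10400 (H3.1, -1.07 ± 0.26) and GAMMA-H2AX (-0.55 ± 0.12) were lower, and AT4G40040 (H3.3, 0.37 ± 0.11) and HTA7 (H2A.W, 0.38 ± 0.11) were higher. AT5G10400 was at -0.55 without replicate 1 of wild type on norflurazon and -1.46 without replicate 2, and was not called without replicate 2 of MORF2OX (-0.81, edgeR adjusted p = 0.109). The calls of AT4G40040 and HTA7 each held in 7 of the 10 fits with a library left out. AT4G40040 was at 558 and 618 CPM in MORF2OX, against 455 and 452 CPM in wild type on norflurazon (edgeR adjusted p = 0.0225), and was not called when libraries were scaled by totals alone (0.03).

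HTA6, the H2A.W gene with the octamer, was lower in both overexpression lines. It was at 11.1 and 7.77 CPM in MORF2OX (-1.07 ± 0.28, edgeR adjusted p = 0.012) and 8.37 and 9.76 CPM in MORF2OX(w) (-1.13 ± 0.28, edgeR adjusted p = 0.0218), against 27.0 and 12.9 CPM in wild type on norflurazon. All 4 libraries of these lines lay below both of wild type, but without replicate 1 of wild type neither call passed (-0.44 and -0.51, edgeR adjusted p = 0.0677 and 0.0729).

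Direct comparisons between the lines do not use the wild type libraries as a baseline. Those libraries still enter the shared estimate of spread, which can make the p-values here too large. MORF2OX differed from gun1-9 in 6 histone genes, 3 higher and 3 lower (35.2% of all genes called, 17.1% higher and 18.1% lower), and MORF2OX(w) differed from it in 6, 4 higher and 2 lower (35.7% called, 16.7% higher and 19.0% lower). HTA9 was higher than in gun1-9 by 0.86 ± 0.11 in MORF2OX and 0.70 ± 0.11 in MORF2OX(w) (edgeR adjusted p = 0.0001 and 0.000357). HIS1-3 was higher by 2.05 ± 0.26 and 1.90 ± 0.26 (edgeR adjusted p = 0.000112 and 0.000143). Both genes were called in both lines in each of the 10 fits with a library left out, and the other 4 calls in each line were lost in at least 1 of them. Those lower in both were HTA6 (-0.96 ± 0.28 and -1.02 ± 0.28, edgeR adjusted p = 0.0192 and 0.0141) and HTB2 (-0.72 ± 0.21 and -0.80 ± 0.21, edgeR adjusted p = 0.02 and 0.0122). HTB2 was at 17.9 and 14.9 CPM in MORF2OX and 15.8 and 15.3 CPM in MORF2OX(w), against 30.9 and 23.3 CPM in gun1-9. With only the groups compared in the fit, the calls numbered 12 for MORF2OX (47.8% of all genes) and 20 for MORF2OX(w) (54.7% of all genes). Between MORF2OX and MORF2OX(w) 0 of the 40 genes were called by edgeR (1.81% of all genes called), 0 had an unadjusted p under 0.05 and 0 were called by DESeq2. The log2 differences there ran from -0.52 (HTA4) to 0.39 (HTA8), and a missed threshold does not show that the lines act alike.

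Genes of the processes that histone supply accompanies were read from lists. In wild type on norflurazon against untreated wild type, 21 of 24 DNA replication genes were lower and 0 higher, with a median of -1.23, where 34.5% of all genes were lower and 30.5% higher. PCNA1, the sliding clamp of DNA polymerase, changed by -2.30 ± 0.23 (edgeR adjusted p = 3.17e-06) and ORC1A, a subunit of the origin recognition complex, by -2.09 ± 0.42 (edgeR adjusted p = 0.000895). All 12 mitosis genes were lower, with a median of -2.25, among them HIK, a kinesin of cytokinesis (-3.20 ± 0.28), and CDKB1;2, a mitotic cyclin-dependent kinase (-2.73 ± 0.27). Against wild type on norflurazon, 11 of 12 mitosis genes were lower in MORF2OX, 8 in MORF2OX(w) and 4 in gun1-9, where 1 was higher. Of all genes, 14.1%, 4.53% and 20.9% were lower in the same order, and 22.9% were higher in gun1-9. The wild type libraries on norflurazon differed in this list too, with 11 of 12 genes higher in replicate 1, as did those of MORF2OX, with 9 of 12. Counts with a library left out are not given for this list. The summed mitosis level was 14.9 and 12.5 CPM in MORF2OX, 17.1 and 16.1 CPM in MORF2OX(w), 30.8 and 31.6 CPM in gun1-9, 42.1 and 30.7 CPM in wild type on norflurazon, and 165 and 167 CPM in untreated wild type. The replicative histone sum did not order the lines in this way, as its values above show.

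Of 8 genes for deposition of H3 and H4, 3 were lower in wild type on norflurazon than in untreated wild type and 0 higher, a share of lower genes near the 34.5% of all genes. TSK, known to bind H3.1, changed by -1.60 ± 0.25 and FAS2, a subunit of CAF-1, by -0.72 ± 0.28. Of 13 chaperones and remodellers of H2A and H2B, 8 were higher and 1 lower, where 30.5% of all genes were higher, with NAP1;1, a nucleosome assembly protein, at 1.35 ± 0.11 and INO80, a remodeller, at 1.30 ± 0.22. RBR1, the retinoblastoma homologue that represses E2F targets, changed by -0.87 ± 0.26 and E2F3, an E2F factor, by -0.46 ± 0.17. Of the 6 genes of that list 3 were lower and 0 higher, where 34.5% and 30.5% of all genes were. The libraries of wild type on norflurazon were unlike in RBR1, at 16.9 and 36.7 CPM (untreated 53.1 and 45.5 CPM). They were also unlike in INO80, at 158 and 297 CPM (untreated 92.7 and 92.6 CPM). Of 8 other histone genes listed, 3 were tested, and 1 was lower and 0 higher. The lower one was HTR12, the centromeric H3 (-1.86 ± 0.25).

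Markers of tissues were read in the same way. Of 9 meristem markers tested, 3 were higher and 2 lower in wild type on norflurazon than in untreated wild type, with PLT1 at 4.20 ± 0.41 and PLT2 at 4.29 ± 0.54, regulators of the root stem cell niche. These shares are near those of all genes (30.5% higher and 34.5% lower), and the median of the list was -0.07. Of 6 root markers, 4 were higher and 1 lower, with a median of 2.13 and with RHD6, a regulator of root hairs, at 3.46 ± 0.56. No marker of either list was at 0 counts in any library. Untreated wild type had only 1 and 6 reads of PLT1, 1 and 2 of PLT2 and 1 and 7 of RHD6. The folds of PLT1, PLT2 and RHD6 thus sit at the limit of counting. The root marker CASP1 had more reads and lay higher, with 259 and 312 reads on norflurazon and 15 and 41 untreated. The meristem marker ANT, with more reads, lay lower, at 11.8 and 13.3 CPM on norflurazon and 42.0 and 49.8 CPM untreated. So did the root marker SCR, at 36.4 and 45.4 CPM on norflurazon and 77.5 and 69.8 CPM untreated. The summed root marker level was 160.0 and 140.0 CPM in gun1-9, 81.4 and 81.9 CPM in MORF2OX, 81.9 and 84.0 CPM in MORF2OX(w), 68.7 and 78.5 CPM in wild type on norflurazon, and 96.7 and 92.0 CPM in untreated wild type. The higher sum in gun1-9 is mostly 1 gene, SCR, at 127 and 108 CPM in gun1-9 and 36.4 and 45.4 CPM in wild type on norflurazon. SCR also made up most of the sum in untreated wild type, so the sum follows that gene more than the others. Per kb of transcript the sum was 36.8 and 40.2 CPM in wild type on norflurazon and 37.5 and 37.0 CPM in untreated wild type. SCR was the root marker called in gun1-9 against wild type on norflurazon, of 6 tested with a median of -0.00. The summed meristem marker level, over 10 genes, was 76.3 and 71.1 CPM, 85.4 and 82.5 CPM, 84.7 and 79.3 CPM, 83.1 and 89.0 CPM, and 96.0 and 120.0 CPM in the same order of groups. The part of tissue makeup in the histone changes was not tested.

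The promoter words did not sort the histone genes cleanly by their change in wild type on norflurazon. The 7 replicative genes with the octamer had log2 fold changes of -2.31 to -0.50 with a median of -1.99, and the 18 without it -2.90 to 0.13 with a median of -1.39. The 9 replicative genes with the hexamer ranged from -2.90 to 0.13, which are HTB2 and AT2G28720. The H3.3 gene AT4G40040 and the H1 gene AT1G06760 hold the octamer and did not pass the test. These values are a description of 40 genes and were not tested.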

How the data were processed

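The deposited tables hold raw read counts per gene, 1 table per library, for 10 libraries in 5 groups of 2. Per the labels' protocols, libraries were stranded, prepared from 500 ng of total RNA after poly(A) selection, and sequenced single-end. The authors used HTSeq 0.6.1, TopHat2 2.1.1, Bowtie2 2.3.1, edgeR and the TAIR10 genome, per the submitters' processing notes. Options (strand among them) and annotation release: not given in the sources used here.

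The 40 histone genes, the other gene lists and the promoter words were chosen with earlier results of these data known. All 40 histone genes may be named. Of the other lists, up to 2 genes per list were named in each of the 4 comparisons with a wild type group, those with the largest fold among genes that passed and whose libraries did not overlap. MORF2 and GUN1 were named always. ANT and SCR, which the rule names in a line, are also given for wild type on norflurazon against untreated wild type. The root marker CASP1 is given outside the rule. 1 root marker that the rule names is not reported here.

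A single fit held all 10 libraries as 5 groups, in edgeR 4.0.16 (glmQLFit, glmQLFTest) in R 4.3.3, with TMM factors of 0.722 to 1.27 and filterByExpr, which kept 20628 genes. The fit had 5 residual degrees of freedom, a common dispersion of 0.0123, and 1 estimate of spread for all groups. Wild type on norflurazon had less alike libraries than the other groups. A shared spread can therefore make p-values against that group too small and those between the lines too large. Benjamini-Hochberg adjustment ran over all genes tested, with a threshold of 0.05. The SE was obtained as the size of the log2 fold change over the root of F. The script was tested on simulated counts. Ratios of variants used summed counts within a library. No intervals from counts are given, and the SE covers the spread between libraries as well as counting error. The alternatives were DESeq2 1.42.0 size factors, its Wald test, no filter, a replicate block, a fit of only the groups compared, leaving out each library and, chosen after seeing the data, scaling by library totals alone. Gene models and promoters came from RefSeq's TAIR10.1.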

Additional observations from a re-analysis of the deposited data

Results flagged for a closer look

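A pair of genes stood out because a line carrying the MORF2 transgene and gun1-9 moved in opposite directions from wild type on norflurazon and also differed when tested against each other. HTA9 (H2A.Z) was higher in MORF2OX than in gun1-9 by 0.86 on the log2 scale and in MORF2OX(w) by 0.70, with edgeR adjusted p of 0.0001 and 0.000357 and all 4 libraries of the overexpression lines above both of gun1-9. HIS1-3 (H1) was higher by 2.05 and 1.90, with edgeR adjusted p of 0.000112 and 0.000143 and the same separation of libraries. Antenna transcripts, the check of green tissue, ran the other way, with summed levels of 3947.2 and 3602.1 CPM in MORF2OX and 2037.3 and 2085.3 CPM in MORF2OX(w), against 16507.4 and 17148.8 CPM in gun1-9, and their part in the histone differences was not tested.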

How the results depend on the processing

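When a library was left out, 29 to 35 histone genes were called in wild type on norflurazon against untreated wild type (32 with all libraries). The corresponding ranges were 2 to 25 in gun1-9, 3 to 26 in MORF2OX and 0 to 28 in MORF2OX(w) against wild type on norflurazon, 3 to 15 and 2 to 19 for MORF2OX and MORF2OX(w) against gun1-9, 0 to 0 between the overexpression lines by edgeR, and 30 to 36, 32 to 37 and 33 to 38 for gun1-9, MORF2OX and MORF2OX(w) against untreated wild type. The log2 difference of the H3.1 to H3.3 ratio ran from -2.61 to -1.81 for wild type on norflurazon, -0.61 to 0.19 for gun1-9, -1.20 to -0.40 for MORF2OX and -1.22 to -0.42 for MORF2OX(w), and was reversed in gun1-9 (0.19) without replicate 1 of wild type on norflurazon. That of canonical H2A to H2A.Z ran from -2.22 to -1.90, 0.32 to 0.63, -0.59 to -0.27 and -0.47 to -0.16. With each gene given the same weight it was -0.39 for wild type on norflurazon, 0.09 for gun1-9, 0.22 for MORF2OX and 0.23 for MORF2OX(w).

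Counts against wild type on norflurazon moved to 28 in gun1-9, 24 in MORF2OX and 12 in MORF2OX(w) under library totals alone. They moved to 16 in gun1-9 and 14 in MORF2OX(w) without a filter, and to 4, 2 and 1 with only the groups compared. Such a fit held fewer libraries in every comparison, and with it the counts against gun1-9 rose. Against gun1-9, MORF2OX moved to 12 with only the groups compared, and MORF2OX(w) to 20 and, under library totals, to 11. Under library totals AT1G07660 (0.24), AT4G40030 (0.39) and RAT5 (0.22) turned positive in wild type on norflurazon, as did AT4G40030 in MORF2OX (0.03) and MORF2OX(w) (0.20) against untreated wild type. The cause was not tested. Deviations of same-numbered libraries correlated between -0.102 and 0.0892, so expression showed no pairing by number. With 2 libraries per group this cannot tell whether same-numbered libraries were handled together. With the replicate block 33, 10, 14 and 7 genes were called in the 4 comparisons with wild type, and 5 and 5 against gun1-9. Genes near the counting limit, such as HTA4, cannot be read closely.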
